A study of Rattus norvegicus with 4 samples.

Results

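The interferon response and MHC class I genes of rat OLN93 cells were followed in the presence and absence of the transcription factor Sox10. They were chosen by symbol, as all genes that start with RT1-, Ifi, Ifit, Oas or Ifnar, all Irf, Gbp and Stat genes with a number, and Samhd1, Il10rb, Mx1, Mx2, Isg15, B2m, Tap1, Tap2, Psmb8, Psmb9, Bst2, Usp18 and Rsad2. This gave 118 genes, of which 109 were among the 17327 gene symbols of the deposited counts, and 93 were among the 26404 genes of the authors' table of mean counts. In that table alone were 9 of them, from Irf2bp2 with a mean of 3256 to Ifitm6 and Ifitm7 at 0. The rule also took in some genes that are not interferon or class I genes, namely 10 MHC class II genes with RT1- symbols, and Irf2bp1, Irf2bp2 and Irf2bpl, which are named after proteins that bind Irf2 or resemble them. OLN93 is a line of rat oligodendroglial cells that grow without limit in culture. RNA was sequenced in bulk from 2 control libraries, which are Sox10-positive, and from 2 libraries of Sox10-deficient clones, A and B, which were edited by Crispr/Cas9 with different guide RNAs. Each Sox10ko library is thus a single clone, whereas the controls are biological replicates in the labels and control clones in the study's methods. All cells grew in DMEM with fetal calf serum, and the labels name no interferon treatment. P-values measure the spread between these libraries.

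Interferons bind receptor pairs on the cell surface (Ifnar1 and Ifnar2 for type I interferon), and Janus kinases then phosphorylate Stat proteins. A complex of Stat proteins with Irf9 binds interferon-stimulated response elements, while Stat dimers bind gamma-activated sites. Their targets include antiviral effectors and the machinery that cuts peptides (Psmb8, Psmb9), moves them into the endoplasmic reticulum (Tap1, Tap2) and presents them on class I heavy chains paired with B2m. Oligodendroglial cells are known to raise class I in response to interferon gamma.

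The promoters of 4 of these genes are shown because they hold letters that match the motifs of these elements. Whether the matches act in these cells was not tested. B2m and Gbp2 are the best covered class I and effector genes, Irf7 had the smallest p-value among the gene set, and Irf1 is a classical target of interferon gamma. Each sequence is the 250 bases before the start site on the strand of the gene, 5′ to 3′, from RefSeq (GRCr8). Capitals mark the core of the interferon-stimulated response element (GAAANNGAA, either strand) in B2m, Gbp2 and Irf7 and the gamma-activated site (TTCNNNGAA, which reads the same on both strands) in Irf1.
B2m promoter, GRCr8 chr3:129549080-129549329, plus strand: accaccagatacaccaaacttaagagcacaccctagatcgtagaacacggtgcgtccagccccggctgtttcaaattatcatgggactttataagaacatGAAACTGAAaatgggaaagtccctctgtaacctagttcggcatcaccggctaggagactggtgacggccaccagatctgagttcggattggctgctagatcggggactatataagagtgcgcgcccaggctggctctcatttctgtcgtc
Gbp2 promoter, GRCr8 chr2:234005477-234005726, plus strand: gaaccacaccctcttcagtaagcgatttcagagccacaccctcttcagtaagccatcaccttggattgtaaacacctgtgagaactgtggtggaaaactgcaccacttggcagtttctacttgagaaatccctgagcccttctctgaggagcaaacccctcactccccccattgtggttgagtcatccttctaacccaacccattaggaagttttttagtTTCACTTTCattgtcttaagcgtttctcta
Irf7 promoter, GRCr8 chr1:205800024-205800273, minus strand: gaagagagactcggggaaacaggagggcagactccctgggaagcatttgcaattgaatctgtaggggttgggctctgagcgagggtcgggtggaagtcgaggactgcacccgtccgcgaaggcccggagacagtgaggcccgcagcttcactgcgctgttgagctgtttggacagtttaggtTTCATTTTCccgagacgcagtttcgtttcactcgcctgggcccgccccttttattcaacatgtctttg
Irf1 promoter, GRCr8 chr10:38417685-38417934, plus strand: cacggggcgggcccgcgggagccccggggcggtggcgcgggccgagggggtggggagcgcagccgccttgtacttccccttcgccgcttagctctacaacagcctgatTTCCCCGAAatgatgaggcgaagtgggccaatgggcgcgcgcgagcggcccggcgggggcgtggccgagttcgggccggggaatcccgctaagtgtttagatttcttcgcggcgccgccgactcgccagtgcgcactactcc
The match began at position -150 in B2m, -30 in Gbp2, -68 in Irf7 and -142 in Irf1, counted from the start site.

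Over windows of 300 bases (250 before and 50 after the start), 98 of the 118 genes could be matched to a promoter. The response element core was found in 29 of them (29.6%), against 10.3% of all 27457 genes in the promoter table, with a gene counted once if any of its windows held the motif. The gamma-activated site was found in 18 (18.4%), against 9.39% of all genes. The response element core was held by 20 of 33 interferon-stimulated effectors and by 4 of 5 genes of class I assembly and peptide supply. Of 32 class I heavy chain genes, 3 held it, and none of the 6 Stat genes or 9 class II genes did. These counts describe letters in a window, and binding was not measured here.

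The deposited counts were shallow, with totals between 60951 and 104017 per library, and 2438 genes could be tested. A gene with 3 counts, the floor used here, had between 29.0 and 48.2 normalized counts per 1000000 counts (CPM), a limit that covers counting error only. For the 5402 genes with an authors' mean of at least 500, the deposited count was in the median 0.384% of that mean, so that a gene needed a mean of about 2604 to be expected at 10 counts per library. Only 3 genes of the set, B2m, Gbp2 and Irf2bp2, reached this mean. Sox10 itself reached 28 and 64 counts in control cells, against 0 for clone A and 14 for clone B. It was lower in the clones with a log2 difference of -2.74 (standard error of 0.62, adjusted p = 0.0172 by edgeR's quasi-likelihood test), which was lost without clone A (-1.76, adjusted p = 0.0959). The call was also lost with the replicate number as a block (adjusted p = 0.1251 by edgeR) and with DESeq2 (adjusted p = 0.9998). In bulk RNA, fewer cells that express a gene and less RNA per cell cannot be told apart. Counts were found for 7 of 7 markers of oligodendrocyte precursors, but not for all of them in every library. Pdgfra was at 23 and 38 counts in control cells and 31 and 44 in Sox10ko cells. Cspg4 was at 16 and 31 counts against 58 and 36, and Ptprz1 at 30 and 21 against 16 and 25. Olig1 was at 12 and 1 counts in control cells and 0 in either clone, and Sox8 at 5 and 2 against 2 and 0. Olig2 had counts in control 1 alone, with an authors' mean of 0. Mag and Mobp, genes of mature myelin, were at 0 in all libraries. Among 8 markers of microglia and leukocytes, which use these pathways heavily, 4 were at 0 in all libraries (Ptprc, Itgam, Cx3cr1 and Tyrobp), and the sum of the list was 96.4 and 271 CPM in the controls and 150 and 147 CPM in the clones.

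For no interferon response or class I gene was a change between Sox10ko and control cells detectable at this depth. Of the 109 genes in the counts, 55 had 0 counts in all libraries (50.5%, against 42.1% of all genes), which allows up to 3 counts in each, 36 had between 1 and 9 counts in all, and 18 had at least 10. Of the 18, 5 passed the filter on low counts (B2m, Gbp2, Irf2bpl, RT1-S3 and RT1-T24-3). None of the 5 had an adjusted p of 0.05 or less, compared with 3.69% of all tested genes. By the criterion of a 2-fold change and an unadjusted p of 0.05 or less, none was lower, where 6.97% of all tested genes were, and none was higher, where 4.63% were. At an unadjusted p of 0.05 or less in either direction the count was again 0, against 14.7% of all tested genes, and the smallest unadjusted p of the 5 was 0.396 by edgeR. DESeq2 also called none of them. A count of 0 among 5 genes is near these shares. The median change on the log2 scale was -0.04 for the 5 genes and -0.0059 for all tested genes.

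Without the filter, the 54 genes with counts could be fitted, and fold changes of genes that did not pass it are from this fit. Their fitted values were higher in Sox10ko for 28 genes and lower for 26, and the median was 0.03 on the log2 scale, against 0.02 for all genes. None had an unadjusted p of 0.05 or less, whereas 7.01% of all 10024 genes fitted this way did. These shares are at unlike depth, since 36 of the 54 genes had between 1 and 9 counts, against 4060 of the 10024. Among the 54 genes, the smallest p was that of Irf7 (0.0610, adjusted p = 0.744 by edgeR). Summed over the gene set, the level was 1863 and 2362 CPM in the controls and 2243 and 2347 CPM in the clones, with means of 2112 ± 353 and 2295 ± 73.5 CPM (SD, n = 2 each). The gene set thus took between 0.190% and 0.235% of the counts in each library, and the groups overlapped.

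**Figure D1:**
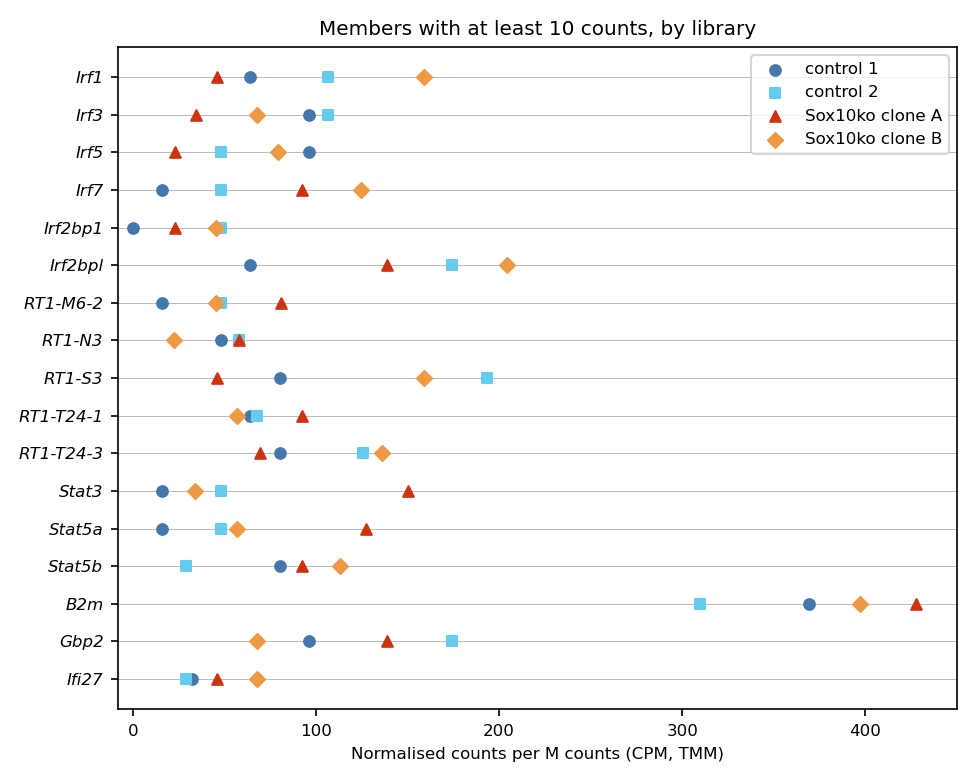
Normalized level (CPM, x axis) of 17 of the 18 genes with at least 10 counts in all, with 1 symbol per library. B2m stands apart, between 310 and 428 CPM, and for most other genes the control and Sox10ko symbols are interleaved.

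Among the 18 genes with at least 10 counts, the control and Sox10ko libraries did not overlap in 6. Such a separation was found in 39.5% of the 5964 genes with at least 10 counts, so that 6 of 18 is not more than among genes in general. Higher in both clones were B2m, Ifi27, Irf7, Stat5a and Stat5b, and lower in both clones was Irf3. For each of the 18 genes, the 95% interval of the fold change says which change the counts leave out. The interval left out a 2-fold decrease for 6 genes (B2m, Irf2bpl, Irf7, Stat3, Stat5a and Stat5b) and a 2-fold increase for 4 (Gbp2, Irf3 and RT1-S3 among them). It left out both for none, and for the other 8 genes it held both. Of the 36 genes with between 1 and 9 counts in all, 6 did not overlap between groups, against 24.5% of all 4060 genes in this range.

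**Figure D2:**
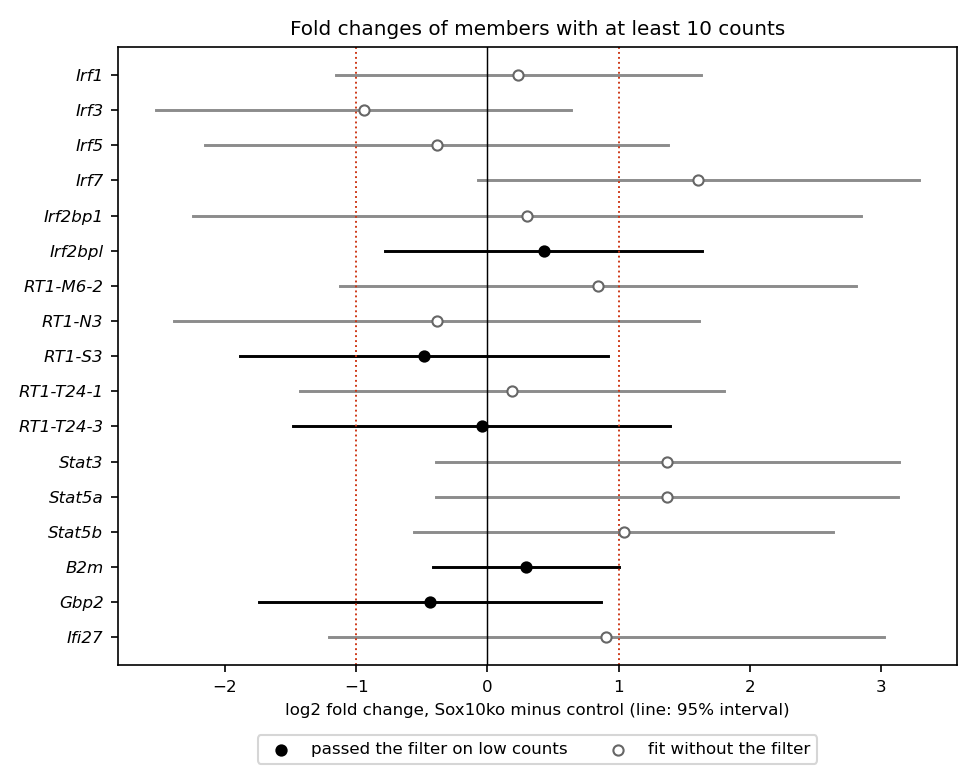
Log2 fold change, Sox10ko minus control, of 17 of the 18 genes with at least 10 counts, with 95% intervals. Filled points passed the filter on low counts, open points come from the fit without it, and dotted lines mark a 2-fold change. All intervals shown hold 0, and the narrowest is that of B2m.

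The receptor chains were barely covered. Ifnar1, a chain of the type I interferon receptor, reached 1 and 3 counts in control cells and 2 and 1 in Sox10ko cells. Il10rb, a chain shared by the receptors for interleukin 10 and type III interferon, reached 1 and 0 counts in control cells, against 0 for clone A and 3 for clone B. The ratio of its pooled counts, Sox10ko to control, was 2.84 with a counting interval from 0.228 to 149, and a change was not detectable at this depth. The study names Il10rb among its candidate Sox10 targets of precursors, which had to be at least 2-fold lower without Sox10. The counting interval also holds such a decrease. The authors' mean count was 504 for Ifnar1, 138 for Il10rb and 125 for Ifnar2, which was not among the symbols of the counts.

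Of 7 Stat genes, 6 had counts, and their summed level was 225 and 339 CPM in the controls and 543 and 352 CPM in the clones. Stat2, which acts in the type I response, had 1 and 1 counts against 4 and 3, a ratio of pooled counts of 3.32 with a counting interval from 0.632 to 32.7. Stat3, which carries signals of the interleukin 6 family, reached 1 and 5 counts in control cells, against 13 for clone A and 3 for clone B, so that clone B lay between both controls and clone A above them. Stat5a and Stat5b mediate signals of growth hormone and cytokines. Stat5a reached 1 and 5 counts in control cells and 11 and 5 in Sox10ko cells, a log2 fold change of 1.37 (standard error 0.90, interval -0.39 to 3.13). Stat5b reached 5 and 3 counts in control cells and 8 and 10 in Sox10ko cells, a log2 fold change of 1.04 (standard error 0.81, interval -0.56 to 2.63). Both were higher in both clones on the CPM scale, and neither passed the test.

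The interferon regulatory factors showed no common direction, at 418 and 339 CPM in the controls and 278 and 442 CPM in the clones in all. Irf1, which interferon gamma induces, reached 4 and 11 counts in control cells and 4 and 14 in Sox10ko cells, and the groups overlapped. Irf3 and Irf7 are the factors that switch on type I interferon genes. Irf3 reached 6 and 11 counts in control cells and 3 and 6 in Sox10ko cells, a log2 fold change of -0.94 (standard error 0.81, interval -2.52 to 0.64). Irf7 reached 1 and 5 counts in control cells and 8 and 11 in Sox10ko cells, a log2 fold change of 1.61 (standard error 0.86, interval -0.07 to 3.29). These are opposite fitted directions, and neither passed the test. The counts of Irf7 and Irf5 were 33.9 and 163 times what their authors' means give at the median ratio. Irf5, known from myeloid cells, reached 6 and 5 counts in control cells and 2 and 7 in Sox10ko cells. Irf9, the DNA-binding part of the complex with Stat proteins, reached 1 and 3 counts in control cells and 0 in either clone. The counting interval of its ratio of pooled counts reached up to 1.44, so that no decrease of Irf9 was detectable. Among the Irf2-binding proteins, Irf2bpl reached 4 and 18 counts in control cells and 12 and 18 in Sox10ko cells (log2 fold change 0.43, standard error 0.57, adjusted p = 0.832 by edgeR). Its value was -0.022 without control 1 and 1.39 without control 2. Irf2bp1, a corepressor, reached 0 and 5 counts in control cells and 2 and 4 in Sox10ko cells.

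Of 35 interferon-stimulated effectors in the counts, 16 were at 0 in all libraries, and the sum of the others was 337 and 474 CPM in the controls and 405 and 295 CPM in the clones. Gbp2, a guanylate-binding GTPase of the defence against intracellular pathogens, was the best covered. It reached 6 and 18 counts in control cells and 12 and 6 in Sox10ko cells, or 135 ± 55.1 against 103 ± 50.01 CPM (SD, n = 2 each). The log2 fold change was -0.44 (standard error 0.62, interval -1.74 to 0.87, adjusted p = 0.842 by edgeR), and its direction rests on control 2, without which it was 0.10. Ifi27, a mitochondrial protein induced by type I interferon, reached 2 and 3 counts in control cells and 4 and 6 in Sox10ko cells, a log2 fold change of 0.91 (standard error 1.08). Samhd1, a dNTP hydrolase that restricts retroviruses, reached 0 and 4 counts in control cells and 0 in either clone. All counts of Samhd1 thus came from control 2, and the counting interval of its ratio of pooled counts reached up to 1.44. Isg15, the ubiquitin-like modifier, was looked at after its values were seen. It reached 1 and 7 counts in control cells and 0 and 1 in Sox10ko cells, a ratio of pooled counts of 0.118 with a counting interval from 0.003 to 0.884. Usp18, which removes Isg15 from proteins and was also named after its values were seen, had 0 counts in both controls and 2 and 1 in the clones. The ratio of Isg15 left out 1 by its counting interval alone, which does not hold the spread between cultures, and its count was 45.1 times what the authors' mean of 13 would give at the median ratio of all genes.

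B2m, the light chain of every class I molecule, was the most counted gene of the set. It reached 23 and 32 counts in control cells and 37 and 35 in Sox10ko cells, or 369 and 310 CPM against 428 and 397 CPM. Both clones were above both controls, with means of 412 ± 21.9 and 340 ± 42.1 CPM (SD, n = 2 each). The log2 fold change was 0.29 (standard error 0.34, interval -0.42 to 1.01, adjusted p = 0.790 by edgeR), which as a fold is between 0.749 and 2.01. A loss of B2m transcript to under 0.749 of the control level in the Sox10-deficient clones was therefore outside the interval. The genes of peptide supply had few counts. Tap1, a subunit of the peptide transporter, reached 0 and 3 counts in control cells and 1 and 4 in Sox10ko cells. Psmb8, a subunit of the immunoproteasome, had 4 and 0 counts against 0 and 1. Psmb9, another of its subunits, had 0 and 3 counts against 0 and 2. In the sum of class I assembly and peptide supply, the level was 434 and 368 CPM in the controls and 439 and 476 CPM in the clones, mostly from B2m.

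**Figure D3:**
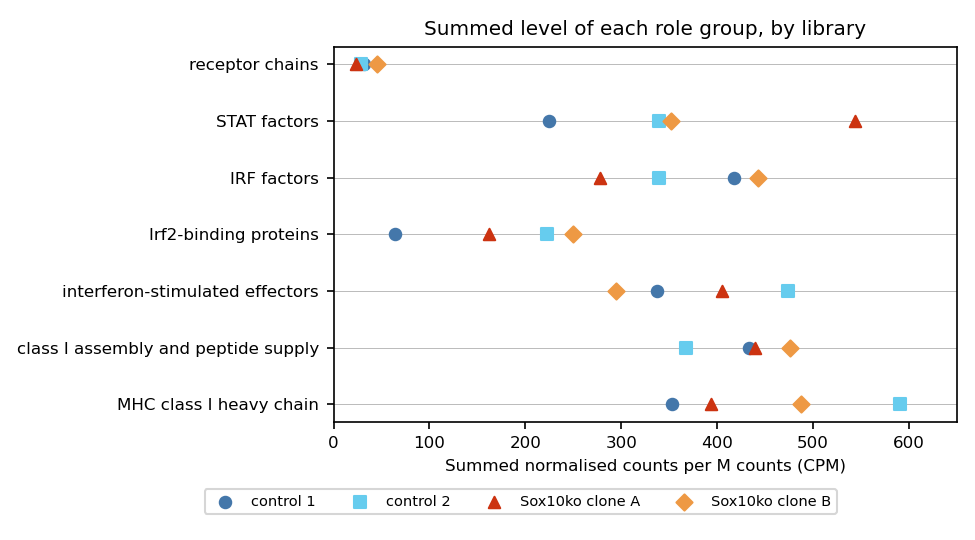
Summed level (CPM, x axis) of the genes in each functional group, with 1 symbol per library. The controls and the clones overlap in the receptor chains, both groups of Irf genes, the effectors and the heavy chains, and are apart by small steps in the Stat factors (339 to 352 CPM) and in class I assembly (434 to 439 CPM).

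Of 39 class I heavy chain genes, 27 were at 0 in all libraries, and the sum was 353 and 590 CPM in the controls and 393 and 488 CPM in the clones. The rat class I genes are near-identical copies in places, so that counts of single RT1 genes are uncertain wherever reads could not be placed uniquely. RT1-S3 reached 5 and 20 counts in control cells and 4 and 14 in Sox10ko cells, a log2 fold change of -0.48 (standard error 0.67, interval -1.88 to 0.92, adjusted p = 0.835 by edgeR). Its fitted direction was reversed without control 2 (0.35) and without clone A (0.14). RT1-T24-3 had 5 and 13 counts against 6 and 12, a log2 fold change of -0.04 (standard error 0.68, interval -1.48 to 1.39, adjusted p = 0.996 by edgeR). Its fitted value was 0.35 both without control 2 and without clone A. In both genes the libraries of each group differed more from each other than the groups did. RT1-T24-1, its neighbour by name, had 4 and 7 counts against 8 and 5. RT1-M6-2 had 1 and 5 counts against 7 and 4, and RT1-N3 had 3 and 6 against 5 and 2. The classical class I genes were nearly absent from the counts, with 0 for RT1-A1 in all libraries and 1 count for RT1-A2, in clone A. In the authors' table, RT1-A1 had a mean of 765 and RT1-A2 of 351. All 10 class II genes, which belong to antigen-presenting cells, were at 0 in the counts.

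The deposited counts were also set against the authors' mean for each gene, because both describe these cells. In the authors' table, 41 of the 93 genes had a mean of at least 100, 24 were between 1 and 99, and 28 were at 0. Of the 17 genes with at least 10 counts and a mean, 13 had under 10 times the median ratio of all genes, 0.520 times at the lowest. The other 4 (RT1-S3, Irf7, Irf5 and RT1-M6-2) had at least 10 times that ratio. RT1-S3 had 12.1 times the median ratio, with an authors' mean of 232. Irf7 had 33.9 times, with a mean of 48. Irf5 had 163 times and RT1-M6-2 had 553 times, with means of 8 and 2. For these 4 genes the deposited counts and the authors' mean thus disagree on the level of the gene.

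**Figure D4:**
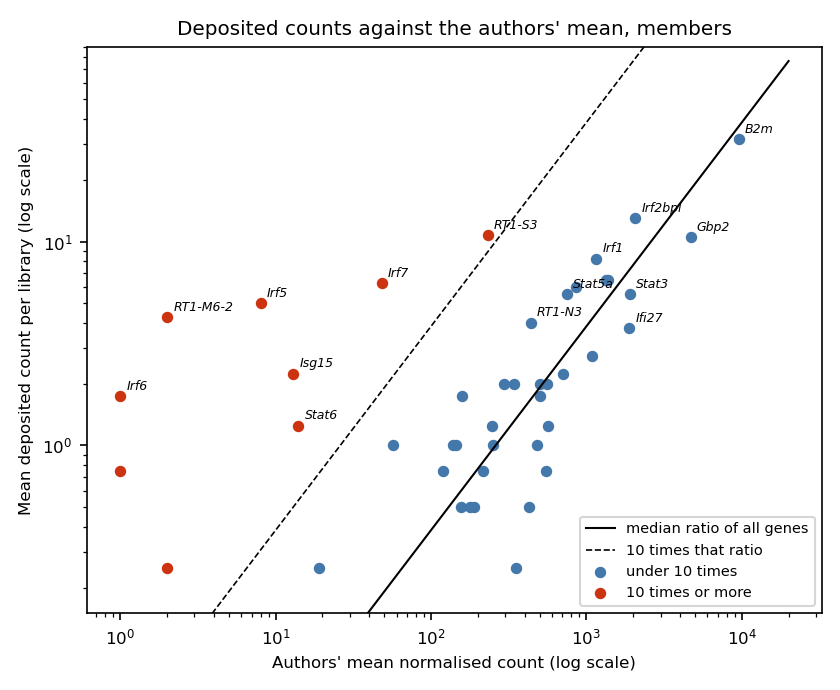
Mean deposited count per library (y axis) against the authors' mean normalized count (x axis), both on log scales, for the genes of the set reported here with at least 1 count and a mean of at least 1. The solid line is the median ratio of all genes, the dashed line is 10 times that ratio, and Irf7, Irf5, RT1-M6-2 and RT1-S3 lie above the dashed line.

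The same excess was seen beyond the gene set. Taken were genes with at least 10 counts that also had an authors' mean and a position and strand in GRCr8. Of these, 494 had at least 10 times the median ratio, and 54.3% of the 494 overlap a gene on the opposite strand. Of the 3998 others, 29.6% do. RT1-S3 and RT1-N3 overlap LOC134483846 on the opposite strand, RT1-T24-3 overlaps RT1-T24-2, and Irf3 overlaps Bcl2l12. Of these, RT1-S3 had an excess of counts, whereas RT1-N3 had 2.37 times and Irf3 1.26 times the median ratio, and RT1-T24-3 had no authors' mean. For Irf7, Irf5 and RT1-M6-2, no gene on the opposite strand overlaps in this annotation. The strand option of the counting is not stated, so that reads of such pairs cannot be told apart, and its part in the excess was not tested.

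The rest of the pathway was followed in a list of 93 other genes of interferon signalling and antigen presentation. Of these, 82 were in the counts, 21 at 0 in all libraries, and 16 were tested. In the median, the 16 genes differed by 0.07 on the log2 scale. By the criterion of a 2-fold change with an unadjusted p of 0.05 or less, 1 was higher in Sox10ko (4.63% of all tested genes were) and 0 were lower (6.97% of all), and by the adjusted p there were 0 (3.69% of all). The gene that met the criterion was Ccl2, a chemokine that attracts monocytes. Ccl2 reached 1 and 0 counts in control cells and 10 and 16 in Sox10ko cells. The log2 difference was 4.29 (standard error of 1.18, interval 1.80 to 6.79, adjusted p = 0.0527 by edgeR, and 0.0112 without the filter). The ratio of its pooled counts was 24.6, with a counting interval from 4.05 to 1010. The interferon genes in the list, Ifna1, Ifna2, Ifna4, Ifnb1 and Ifng, were at 0 in all libraries. Chaperones of the class I peptide loading pathway were the best covered. Pdia3 reached 64 and 103 counts in control cells and 82 and 71 in Sox10ko cells (log2 fold change -0.21). Calr had 70 and 74 counts against 93 and 78 (0.12), and Canx had 66 and 85 against 67 and 52 (-0.45). Il6st, the shared receptor chain of the interleukin 6 family, had 21 and 41 counts against 36 and 30 (0.03). Jak1, a kinase at the interferon receptors, had 21 and 27 counts against 22 and 30 (0.01).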

How the data were processed

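Reads were mapped by the authors with STAR (rat genome build rn5) and counted per gene with HTSeq. The deposited counts are raw and not normalized, by gene symbol. In a second table the authors give DESeq2 results per Ensembl gene. Only its mean normalized count, rounded by the authors and treated as a score, was used here as the authors' mean over all samples, and its fold changes, standard errors, Wald statistics and p-values were not used.

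The counts were compared with edgeR 4.0.16 under R 4.3.3 (filterByExpr with a minimum count of 10, TMM normalization, quasi-likelihood F-test, condition as the sole term, prior count 0.125), with Benjamini-Hochberg adjustment over 2438 genes. Standard errors derive from the F statistic, and intervals are 95%. The test was also checked on simulated counts. DESeq2 1.42.0, other scalings and filters, the replicate number as a block, leaving out each library and a prior count of 2 were alternatives. Ratios of pooled counts carry exact counting intervals, from Python 3.11.15 with scipy 1.17.1.

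Named are all genes of the set that passed the filter, those with at least 10 counts, Il10rb and Samhd1, and of the pathway list those meeting the criterion and the 5 with the most counts. Others named with values were chosen after their values were seen. The gene set, lists and named genes were chosen with earlier results of these data known. Promoter sequences came from RefSeq (GRCr8) and were not used for positions of the counts. Results of 1 gene of the set are not reported here.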

Additional observations from a re-analysis of the deposited data

How the results depend on the processing

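Under 10 alternatives, 0 genes of the set were called in either direction by either criterion, and their median change on the log2 scale stayed within the spread between them, from -0.29 to 0.35 when 1 library was left out and from -0.06 to 0.32 otherwise. With at least 10 counts in every library, only B2m could be fitted. B2m was higher in Sox10ko in all of its 11 alternatives, from 0.16 to 0.41. The other genes turned direction when libraries were left out. Gbp2 was at 0.10 without control 2 (range -1.03 to 0.10), and Irf2bpl at -0.022 without control 1 (range -0.022 to 1.39). RT1-S3 was at 0.35 without control 2 and 0.14 without clone A (range -1.61 to 0.35). RT1-T24-3 was at 0.35 without control 2 and also 0.35 without clone A (range -0.60 to 0.35). The cause was not tested. The decrease of Sox10 lost its call with the replicate block (-2.82, adjusted p = 0.1251 by edgeR), with DESeq2 (-2.74, adjusted p = 0.9998) and without clone A. Its range was -8.51 to -1.76 when 1 library was left out. The value of -8.51 is without clone B, where clone A, at 0 Sox10 counts, is the lone Sox10ko library. The size of that value depends on the prior count. When 1 library is left out, the lone library of its group is assumed to vary like the others. The labels do not say whether the replicate numbers pair the libraries. Across the 2438 tested genes, the difference between replicates correlated at 0.12 between the groups, a value that cannot settle this. With the block 42 genes of the whole table were called, against 90 without it and 0 of the set in both. Counts of called genes over the whole table were also 37 with DESeq2, 45 with at least 10 counts in every library, and between 40 and 110 with 1 library left out. The share of all genes with a motif in the promoter window fell to 8.66% for the response element core and 8.19% for the gamma-activated site when only bases before the start were read. Depth limits the set, since 36 of its genes had between 1 and 9 counts and 55 had 0.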

Other observations

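Of the 6 genes with between 1 and 9 counts in all whose groups did not overlap, Irf9, Isg15, Mx1 and RT1-T24-2 were lower in both clones, and Stat2 and Usp18 were higher. Mx1, a dynamin-like antiviral GTPase, reached 2 and 1 counts in control cells and 0 in either clone, with an authors' mean of 1. RT1-T24-2 reached 2 and 3 counts in control cells and 1 and 0 in Sox10ko cells. In the other pathway list, Ddx58, the cytoplasmic RNA sensor RIG-I, reached 2 and 7 counts in control cells and 0 in either clone. Its ratio of pooled counts had a counting interval up to 0.480, which does not hold the spread between cultures. Its unadjusted p without the filter was 0.0140 (adjusted p = 0.390 by edgeR). The count of Ddx58 was 6.81 times what its authors' mean of 86 gives at the median ratio. In the same list, Uba7 had 1 and 6 counts in control cells and 0 in either clone. Mr1 had 0 counts in both controls and 2 and 1 in the clones. All 8 counts of Trex1 came from control 2 and all 3 of Tlr4 from clone B, so that their groups overlapped. Ciita and Rfxap, among others, were also at 0 in both clones, and Ube2l6 and Cd74 in both controls. Of all 4060 genes with between 1 and 9 counts, 24.5% did not overlap between groups. These genes were picked after their values were seen, and in the fit without the filter Isg15, at 0.107, had the smallest unadjusted p of the 6 (adjusted p = 0.854 by edgeR).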
